A study of Mus musculus with 2 samples.

Results

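The CD8 T cells described here are those of mouse liver tumors in which no transcript of 4 exhaustion genes, Pdcd1, Lag3, Havcr2 and Tox2, was counted. They numbered 635 of 19479 quality-filtered cells, 390 of 8965 in the WT library and 245 of 10514 in the hKO library. The cells were chosen by their measured values, in counts of unique molecular identifiers (UMIs, 1 per captured transcript). A cell had to hold at least 1000 UMIs and 200 genes, with at most 25% mitochondrial UMIs. It then needed at least 1 UMI of Cd3d, Cd3e or Cd3g and at least 1 of Cd8a or Cd8b1, and none of Cd4, Foxp3, Cd79a or the 4 exhaustion genes. At most 2 UMIs of C1qa, C1qb and C1qc together and at most 1 of Siglech were allowed. Cells that met every other line but held at least 1 UMI of an exhaustion gene, 221 in WT and 174 in hKO, are called marker-positive CD8 cells and were used for comparison.

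Single-cell 3′ RNA libraries had been made from liver tumors of C57BL/6J mice, 1 library from WT animals and 1 from animals labelled FABP5 hKO. The hKO animals carried Alb-CRE-ER, a Cre recombinase that tamoxifen switches on and that the albumin promoter drives in hepatocytes. Littermates of both groups received tamoxifen at the age of 6 to 8 weeks, as 5 injections of 100 mg/kg spaced 3 days apart after 16 h of fasting, and from 2 weeks later ate the diet labelled CD-HFD for 15 months. Each library pooled 2 to 3 hepatocellular carcinomas, so n = 1 pool per group and no test between groups was possible. Intervals given below are 95% and cover counting error only. Fabp5 was listed at 27.2 counts per 1000000 UMIs (CPM; interval 20.6 to 35.1) in 208 WT cells gated as hepatocytes and at 14.1 CPM (10.5 to 18.5) in 899 such hKO cells. That gate asked for hepatocyte transcripts and no CD3 UMI. It did not exclude cells that also held transcripts of other cell types. No source used here says whether the deleted part of Fabp5 includes the counted 3′ end. In the CD8 cells without exhaustion markers Fabp5 gave 8 UMIs in WT and 11 in hKO, a log2 ratio of 1.38 (−0.07 to 2.90).

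CD8 T cells recognise peptides on MHC class I through a receptor signalling through the CD3 chains, with the CD8 alpha and beta chains as co-receptor. Naive and central memory CD8 cells carry CCR7, which takes them through lymph nodes, and the transcription factors TCF7 and LEF1. Effector and effector memory cells make granzymes and chemokines such as CCL5, and tissue-resident cells hold on to a tissue through integrins such as CD49a (Itga1) and CD103 (Itgae). Chronic antigen exposure turns on PD-1 (Pdcd1), LAG3, TIM-3 (Havcr2) and TOX proteins. Absence of a UMI is not absence of the protein or of the transcript, and the 4 genes are sparse at this depth.

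The label names 4 markers, and all were present. Cd8a stood at 409 CPM in WT and 288 CPM in hKO, and Cd8b1 at 523 and 368 CPM; both were used to choose the cells. Lef1 stood at 313 CPM (289 to 339) in WT and 350 CPM (315 to 388) in hKO. Ly6c2, which encodes the surface protein Ly6C2 of memory CD8 cells, stood at 295 CPM (272 to 320) and 525 CPM (482 to 570). Lef1 was found in 48.7% of WT and 45.3% of hKO cells, against 3.67% and 3.24% of gated B cells. Thinned to 1000 UMIs a cell, the Lef1 shares were 24.6% and 22.04%. Ly6c2 was found in 33.3% and 42.0% of cells (16.9% and 26.5% thinned), against 6.55% and 6.98% of gated B cells (2.66% and 3.07% thinned). Neither of these 2 markers was found in the majority of cells.

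Ly6c2 has a near copy, Ly6c1, in the same gene cluster, and reads of such copies can be split between them. In these cells Ly6c1 gave 8 UMIs in WT and 14 in hKO, while Ly6c2 gave 592 and 556. The RefSeq promoters of the 2 genes (250 bases before to 50 after the start, GRCm38.p6) were aligned with each other. Ly6c2 is at chr15:75111922-75112221 and Ly6c1 at chr15:75048788-75049087, both on the minus strand. They matched in 208 of 334 aligned columns (62.3%), with 34 gap columns in each. Many gap columns lie at or near the ends, where the 2 windows do not cover the same stretch. The share is therefore not a measure of how far the copies have moved apart. Promoters are not the counted 3′ ends, so the match does not bear on how reads were split. Capitals mark the bases that differ from the other copy or lie in its gaps.
Ly6c2: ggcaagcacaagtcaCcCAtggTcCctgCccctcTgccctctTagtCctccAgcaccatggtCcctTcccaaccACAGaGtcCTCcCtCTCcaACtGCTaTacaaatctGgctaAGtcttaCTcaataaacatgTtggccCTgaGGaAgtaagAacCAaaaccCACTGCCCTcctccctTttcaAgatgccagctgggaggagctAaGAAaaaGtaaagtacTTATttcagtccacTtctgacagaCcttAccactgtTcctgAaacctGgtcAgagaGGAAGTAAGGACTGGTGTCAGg
Ly6c1: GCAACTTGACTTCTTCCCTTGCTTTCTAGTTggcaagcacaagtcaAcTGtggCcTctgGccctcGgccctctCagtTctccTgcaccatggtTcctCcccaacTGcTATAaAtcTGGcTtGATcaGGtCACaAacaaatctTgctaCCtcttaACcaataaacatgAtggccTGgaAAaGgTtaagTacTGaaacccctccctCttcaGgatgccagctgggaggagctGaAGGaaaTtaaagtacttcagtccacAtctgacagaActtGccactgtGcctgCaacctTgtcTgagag

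The cells made up 4.35% (3.94 to 4.79, Clopper-Pearson) of filtered cells in WT and 2.33% (2.05 to 2.64) in hKO, a log2 ratio of −0.90. Of all cells with a CD3 UMI they were 17.8% (16.2 to 19.4) and 8.63% (7.62 to 9.72). Within the CD8 gate, the rule without its exhaustion line, the share was 63.8% (59.9 to 67.6) in WT and 58.5% (53.6 to 63.2) in hKO, and these intervals overlap. The gate itself held 611 WT and 419 hKO cells. Gated after thinning every cell to 1000 UMIs, the shares of the CD8 gate were 78.8% and 80.4%. The limit on macrophage C1q transcripts removed 358 WT and 599 hKO cells that had met the earlier lines. Without that limit the log2 ratio of the share of filtered cells was −0.54 in place of −0.90. Just inside that limit, 155 WT and 96 hKO cells held 1 or 2 C1q UMIs, and 69 and 96 cells just outside held 3 or 4. Just outside the exhaustion line, 79 WT and 57 hKO cells held a single UMI of the 4 genes, and 93 and 82 held 3 or more. The median sum of Cd8a and Cd8b1 was 4 UMIs in WT and 2 in hKO, and a sum of 1, the lowest allowed, was found in 57 and 69 cells.

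Depth was similar in both groups. The cells held 2006833 UMIs in WT and 1059564 in hKO, with medians of 4207.5 and 3868 UMIs and 1913.5 and 1692 genes a cell. The median mitochondrial share was 6.32% and 9.68%. The libraries shared 73 of their deposited barcodes, none of them among these cells. Whether fewer cells in a pool came from the tumors or from dissociation cannot be told apart with 1 library per group.

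The leading lineage genes were those of effector and memory cells more than of naive ones. Ccl5, a chemokine that memory and effector CD8 cells store as transcript, stood at 5192 CPM in WT and 7189 CPM in hKO. It was found in 93.1% and 93.9% of cells (88.5% and 90.2% thinned) against 8.35% and 15.7% of gated B cells (2.66% and 5.71% thinned). Nkg7, a cytotoxic granule protein, stood at 1205 and 1107 CPM and the survival factor Bcl2 at 1544 and 1595 CPM. Gzmk, the granzyme of effector memory cells, stood at 169 and 138 CPM, Gzmb at 407 and 219 CPM, and the T-box factor Eomes at 63.8 and 88.7 CPM. On the recirculation side, Il7r, the IL-7 receptor chain, stood at 681 and 472 CPM, Klf2 at 319 and 301 CPM, Tcf7 at 161 and 187 CPM and Ccr7 at 19.4 and 46.2 CPM. Tox, an exhaustion-linked factor that the rule did not use, stood at 818 CPM in WT and 1317 CPM in hKO. Ctla4, an inhibitory receptor, stood at 63.3 and 68.9 CPM and Entpd1 (CD39) at 96.2 and 70.8 CPM. Cells without a UMI of the 4 exhaustion genes were not free of transcripts linked to that state.

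Each cell, thinned to 1000 UMIs, was placed by UMIs of 2 sets. The recirculation set included Ccr7, Lef1 and S1pr1, and the effector set was Ccl5, Nkg7, Gzmk, Gzma, Gzmb and Cxcr6. Cells with recirculation UMIs only were 19 in WT, or 4.87% (2.96 to 7.50), and 7 in hKO, or 2.86% (1.16 to 5.80). Effector UMIs only were found in 66.7% of WT and 64.5% of hKO cells, and both kinds in 26.4% and 29.8%. These are ranges of counts at a fixed depth and not cell types. No order of the libraries in recirculation-only cells is read from this, since hKO was the higher under several settings: 5.10% in WT and 5.47% in hKO with a mitochondrial limit of 10%, 3.47% and 4.42% with at least 2 CD3 UMIs, and 9.74% and 10.2% with Ccl5 left out of the effector set. With all UMIs kept, effector-only cells were 42.1% and 40.4%, and cells with both kinds were 55.4% and 57.1%.

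**Figure D1:**
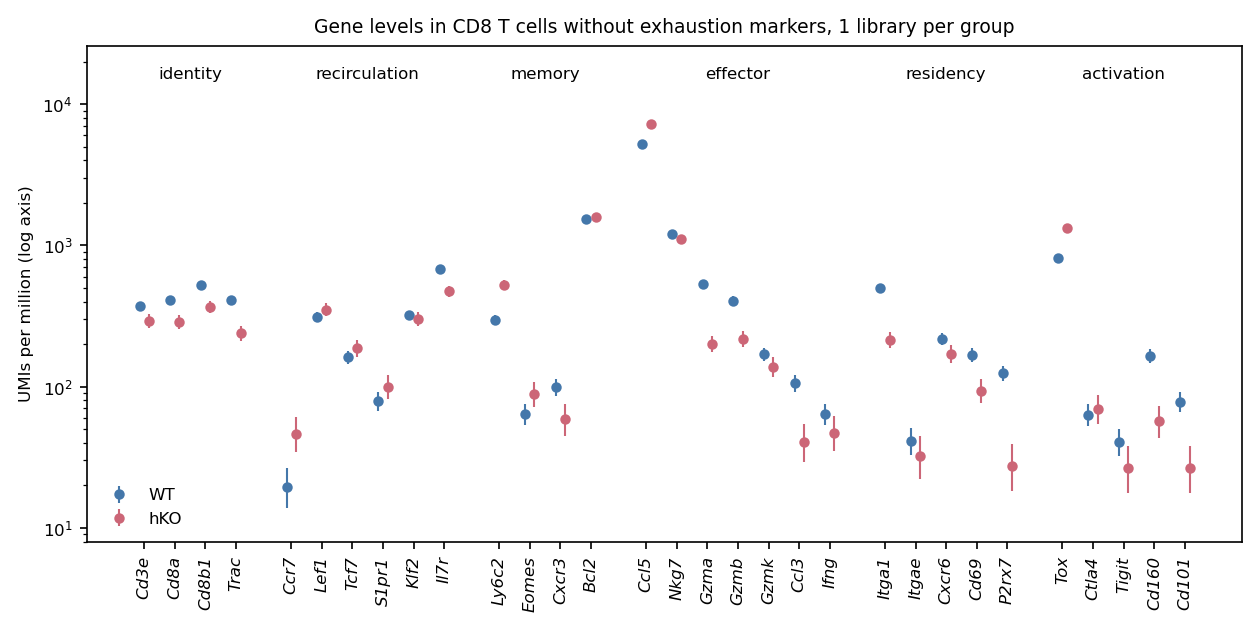
Levels of named genes in the CD8 T cells without exhaustion markers, in CPM on a log axis, for WT (blue) and hKO (red), grouped by the role of the gene. Points are pooled counts of 1 library and bars are exact Poisson 95% intervals, so they cover counting error only; Ccl5 was highest in both libraries, while P2rx7, Cd160 and Cd101 sat lower in hKO.

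Marker-negative CD8 cells differed from marker-positive ones in the recirculation genes, in the same direction in both libraries. This comparison is a description without a test, because the rule split the same cells by their counts. A gene was counted when it reached 50 CPM in either gate and, in both libraries and the same direction, differed by 1 or more on the log2 scale with an interval clear of 0. Of 4350 genes, 51 (1.17%) were higher and 40 (0.92%) were lower in the cells without exhaustion markers; the median log2 ratio of all tested genes was −0.01 in WT and −0.02 in hKO. The higher genes numbered 12 when Tigit, Ctla4, Entpd1, Cd244a and Tox also had to be 0, 80 with stricter limits on other cells' transcripts and 98 without mixed cells. Leaving out cells that carry transcripts of other cell types (mixed cells, at least 5 UMIs of an endothelial list or of a myeloid and MHC class II set), 46 of the 51 and 19 of the 40 were still counted.

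Of 13 tested genes of the naive and recirculation list, 7 were higher and none lower, with a median log2 ratio of 1.60 in WT and 1.51 in hKO. Satb1, a chromatin organiser of T cells, stood at 370 CPM against 43.1 in marker-positive cells in WT and at 394 against 43.0 CPM in hKO, log2 ratios of 3.10 (2.69 to 3.54) and 3.19 (2.75 to 3.67). Il7r stood at 681 against 138 CPM in WT and 472 against 101 CPM in hKO. The log2 ratios of Lef1 were 2.00 and 2.50, of Tcf7 2.19 and 1.73, and of Nsg2, a gene of naive T cells, 3.87 and 2.42. Ly6c2 had log2 ratios of 1.51 and 2.29. Nt5e, the ectoenzyme CD73, had 2.11 and 2.10, and Cmah, which makes a sialic acid of the cell surface, had 2.08 and 2.08. Pde11a (2.12 and 3.44) and Mmp16 (1.95 and 4.81) were also among the highest 10. Nebl had 2.53 in WT and was listed at 0 in the marker-positive cells of hKO, so there the log2 ratio was at least 3.53. Itga1, an integrin of resident cells, was likewise higher, with log2 ratios of 1.35 and 2.13. It was the single higher gene among 9 tested tissue residency genes, 1 of which was lower, with list medians of −0.46 in WT and −0.23 in hKO.

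Among the lower genes were the chemokines of stimulated T cells and genes of chronic stimulation. Ccl4 stood at 432 against 1862 CPM in WT and at 230 against 832 CPM in hKO, log2 ratios of −2.11 and −1.85. Ccl3 had log2 ratios of −2.60 and −2.95, Rgs16, a regulator of G protein signalling, −3.72 and −2.37, and Il10, an inhibitory cytokine, −5.14 (−7.45 to −3.52) on 3 UMIs and −4.80 (−7.88 to −2.88) on 2. Map2 (−2.62 and −2.31), Wdfy4 (−2.03 and −2.50), Baiap3 (−1.91 and −2.22), Adgrg1 (−1.89 and −2.07), Setbp1 (−2.45 and −1.85) and Mctp1 (−1.83 and −1.87) completed the lowest 10. Of 15 tested activation and exhaustion genes that the rule did not use, 5 were lower and none higher, with medians of −1.16 and −0.88. Among them were Nr4a2, induced by receptor signalling (−2.24 and −1.71), Ctla4 (−2.09 and −1.14) and Entpd1 (−1.46 and −1.49). Tox had −1.89 in WT and −0.88 in hKO and was not counted, and Gzmk (−1.51 and −0.88) and Ccl5 (−1.35 and −0.94) were not counted either. Of 16 cytotoxic genes, 2 were lower, and these were the chemokines Ccl3 and Ccl4.

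**Figure D2:**
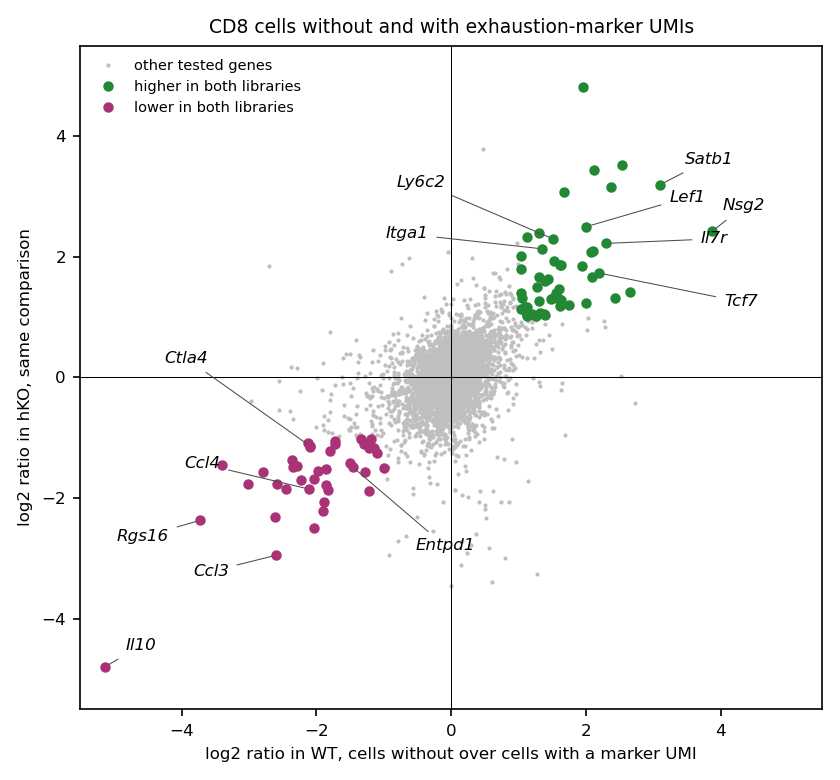
Log2 ratio of CD8 cells without over CD8 cells with a UMI of the 4 exhaustion genes, for each tested gene, in WT (x axis) and hKO (y axis). Green points (51 genes) are higher and purple points (40 genes) lower in both libraries, and grey points are the other genes; Satb1, Lef1, Il7r and Tcf7 lie at the upper right and Il10, Rgs16, Ccl3 and Ccl4 at the lower left.

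LEF1 and TCF7 bind the motif CTTTGA or its reverse complement TCAAAG, and the promoters of the 10 highest genes were searched for it on both strands. Of these, 8 genes had 20 promoters in the RefSeq table, and 3 promoters (15.0%), of Nebl, Lef1 and Cmah, held the motif. Of all 32851 promoters in the table, 5257 (16.0%) held it, so the share among the highest genes was near that of all promoters. The Lef1 promoter (GRCm38.p6, chr3:131156044-131156343, plus strand) and the Cmah promoter (chr13:24327154-24327453, plus strand) are shown with the motif in capitals, because Lef1 is the factor and Cmah was higher in the Ly6c2 class described next. A match is a run of letters and not a bound site.
Lef1: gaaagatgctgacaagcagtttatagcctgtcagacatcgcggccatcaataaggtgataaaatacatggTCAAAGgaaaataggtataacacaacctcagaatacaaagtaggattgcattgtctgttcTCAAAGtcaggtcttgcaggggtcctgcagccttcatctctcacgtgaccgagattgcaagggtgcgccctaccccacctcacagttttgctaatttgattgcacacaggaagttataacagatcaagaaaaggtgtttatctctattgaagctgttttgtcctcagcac
Cmah: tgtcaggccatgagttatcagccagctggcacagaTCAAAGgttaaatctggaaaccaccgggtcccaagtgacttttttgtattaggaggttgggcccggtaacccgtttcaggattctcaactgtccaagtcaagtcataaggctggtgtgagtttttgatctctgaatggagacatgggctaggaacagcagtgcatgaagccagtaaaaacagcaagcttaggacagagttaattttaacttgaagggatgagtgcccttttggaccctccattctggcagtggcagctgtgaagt

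The cells were not uniform, and they were split by UMIs of Ly6c2 and Itga1. This split was chosen after the data were seen and describes counts, not cell types; it was made in 285 WT and 156 hKO cells left after removing those with transcripts of other cell types. Ly6c2 only was found in 21.8% (17.1 to 27.0) of WT and 26.3% (19.6 to 33.9) of hKO cells. Itga1 only was found in 34.7% (29.2 to 40.6) of WT and 14.7% (9.58 to 21.3) of hKO cells. These intervals do not overlap, but they cover counting error in 1 pool per group and not the spread between pools. Both were found in 11.9% and 13.5%, and neither in 31.6% (26.2 to 37.3) and 45.5% (37.5 to 53.7). Thinned to 1000 UMIs a cell, Itga1 only was 25.3% in WT and 11.5% in hKO, and Ly6c2 only 16.8% and 23.1%. In gated B cells Itga1 was found in 5.90% and 2.21% (2.30% and 0.767% thinned). Cells with Ly6c2 only were deeper, with a median of 5208.5 UMIs in WT and 4466 in hKO, against 3780 and 2977 in cells with Itga1 only.

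Of 4626 genes, 57 (1.23%) were higher and 88 (1.9%) lower in Ly6c2-only than in Itga1-only cells in both libraries. The counts were 6 and 14 with cells thinned to 1000 UMIs, and 88 and 336 with mixed cells kept. The Ly6c2-only cells held genes of recirculating and memory cells. Cmah stood at 421 against 7.40 CPM in WT and 374 against 14.0 CPM in hKO (5.83, 4.25 to 8.13, and 4.74, 2.21 to 10.06). Il18r1, an IL-18 receptor chain of memory cells, stood at 437 against 41.9 CPM and 363 against 14.0 CPM. Bach2, a repressor of effector genes, stood at 684 against 96.1 CPM and 552 against 14.0 CPM. Satb1, Klf2, S1pr1, Tcf7 and Lef1 were higher as well, with Lef1 at 525 against 214 CPM in WT and 758 against 70.0 CPM in hKO.

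The Itga1-only cells had higher levels of Gzmb, Xcl1, Itgae, Cxcr6, P2rx7, Cd160 and Atp8a2. Gzmb, granzyme B, stood at 860 CPM in WT and 1218 CPM in hKO there, against 79.4 and 27.1 CPM in Ly6c2-only cells. Xcl1, a chemokine that draws cross-presenting dendritic cells, stood at 648 and 462 CPM against 51.9 and 48.7 CPM. Itgae stood at 51.8 and 139.9 CPM against 6.11 and 16.2 CPM, and Cxcr6, a chemokine receptor of liver-resident cells, was also higher. P2rx7, a receptor of extracellular ATP, stood at 343 and 84.0 CPM against 21.4 and 5.42 CPM. Cd160, a receptor of cytotoxic cells, stood at 313 and 182 CPM against 15.3 and 27.1 CPM. Atp8a2, a lipid flippase, stood at 1267 and 742 CPM against 15.3 and 21.7 CPM. Of 7 tested tissue residency genes other than Itga1, 4 were higher in Itga1-only cells (Itgae, P2rx7, Rgs1 and Cxcr6) and none in Ly6c2-only cells. Cd69, an early activation and residency receptor, went the other way without being counted, at 108 and 56.0 CPM in Itga1-only against 244 and 125 CPM in Ly6c2-only cells. Of 12 tested natural killer receptor genes, 2 were higher in Itga1-only cells (Fcer1g and Cd7) and none in Ly6c2-only cells. Fcer1g stood at 116 CPM in WT and 728 CPM in hKO there, against 39.7 and 21.7 CPM in Ly6c2-only cells. The hKO values of the Itga1-only class rest on 23 cells.

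Tox was highest in the cells with neither gene. There it stood at 2138 CPM in WT and 2388 CPM in hKO, against 638 and 726 CPM in Ly6c2-only cells and 772 and 1525 CPM in Itga1-only cells. Gzmk stood at 387 and 318 CPM, against 91.6 and 65.0 CPM in Ly6c2-only and 187 and 98.0 CPM in Itga1-only cells. Eomes stood at 161 and 159 CPM, against 76.3 and 43.3 CPM in Ly6c2-only and 22.2 and 56.0 CPM in Itga1-only cells. Ctla4, the inhibitory receptor, stood at 211 and 109 CPM, against 119 and 37.9 CPM in Ly6c2-only and 12.3 and 28.0 CPM in Itga1-only cells. Other exhaustion-linked transcripts lay elsewhere. Cd160 stood at 313 CPM in WT and 182 CPM in hKO in Itga1-only cells, against 102 and 62.8 CPM in cells with neither gene. Its hKO values rest on 13 and 15 UMIs. In WT, Cd101 gave 70 UMIs in Itga1-only cells and 19 in cells with neither gene. The cells with neither gene were shallow, with medians of 3551.5 and 3229 UMIs.

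**Figure D3:**
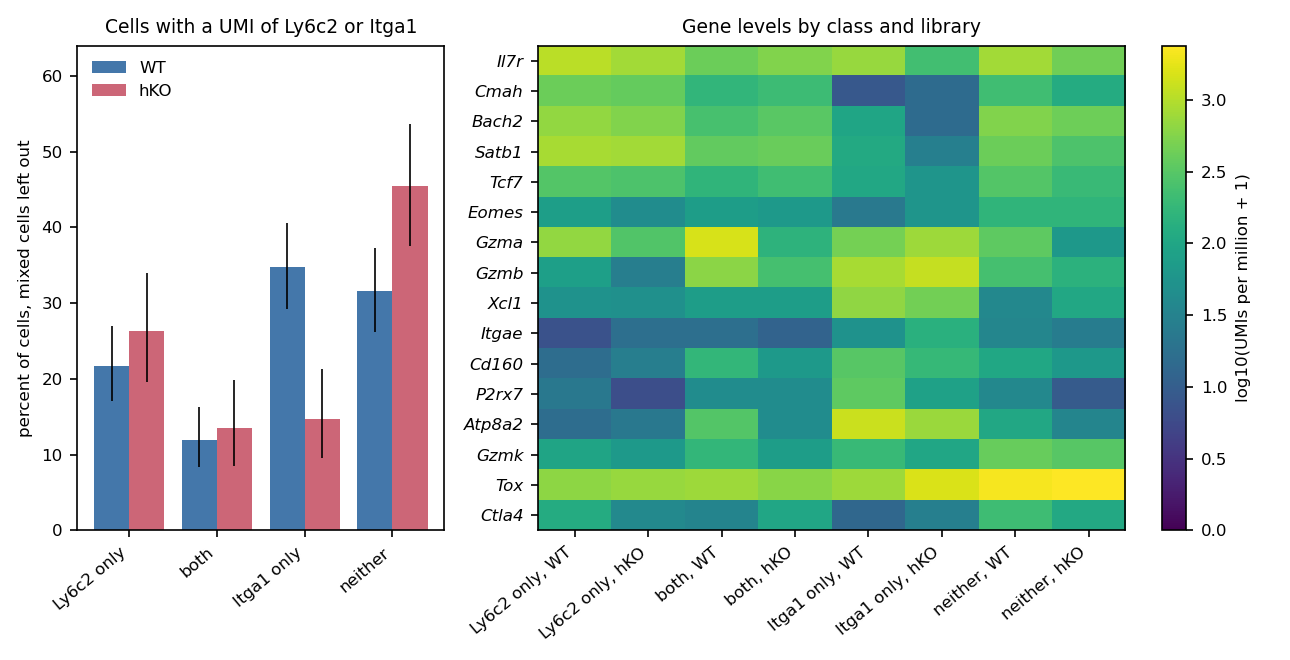
Left, percent of cells (y axis) with a UMI of Ly6c2 only, both genes, Itga1 only or neither, in WT (blue, 285 cells) and hKO (red, 156 cells), with Clopper-Pearson 95% intervals. Right, levels of named genes in each class and library, as log10 of CPM plus 1 in the color scale; Gzmb is bright and Cmah dark in the Itga1-only columns, and Tox is brightest in the columns with neither gene.

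Transcripts of other cell types were present in these cells and differed between the libraries, which touches every comparison of hKO with WT. The 12 hepatocyte genes of the list summed to 1885 CPM in WT and 7858 CPM in hKO, and to 2254 and 10084 CPM in gated B cells, with a median of 7 and 23 UMIs a cell. The 10 endothelial genes summed to 2530 and 603 CPM and were held by few cells: 69 WT and 15 hKO cells had at least 5 such UMIs. In the B gate they summed to 771 and 243 CPM. The 12 dendritic cell genes summed to 1366 and 2433 CPM, the 10 macrophage genes to 350 and 399 CPM, the 10 B and plasma genes to 391 and 105 CPM, and the 6 erythroid genes to 10598 and 1761 CPM. Cd4, Foxp3 and Cd79a were at 0 by the rule, and Lrat of the stellate list and Gp1bb of the platelet list were at 0 as well. A cell with at least 5 UMIs of the endothelial list, or of Lyz2, Cd74, H2-Aa, H2-Ab1 and H2-Eb1 together, is called mixed; there were 105 (26.9%) in WT and 89 (36.3%) in hKO. Without mixed cells the endothelial sum was 107 and 61 CPM, and the hepatocyte sum stayed at 2152 and 8235 CPM. Their part in each gene's difference was not tested.

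For hKO over WT, a gene passed the size rule when 1 library reached 50 CPM and the log2 ratio was 1 or more in either direction with an interval clear of 0. The rule was met by 94 of 3812 genes (2.47%) with the higher level in hKO and by 239 (6.27%) with the lower level there. The median log2 ratio over all 3812 was −0.24. With the median set to 0 the split was 151 higher and 169 lower, and with mitochondrial, ribosomal, hemoglobin and receptor genes left out of the total it was 203 and 260. Without mixed cells 89 of 3585 genes (2.48%) were higher and 132 (3.68%) lower, with a median of −0.20. Passing both with and without mixed cells were 63 genes higher and 40 lower. Of the 239 lower genes, 199 did not pass without mixed cells, and 161 were over 3 times higher in gated endothelial cells. A further 65 higher and 5 lower genes were set aside, because a gated non-T class of the same library held them at over 10 times the level.

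The 10 lowest genes were Nostrin, Ccn2, Aff2, Lama4, Shroom2, Fam167b, Bmp6, Trat1, Abcc9 and Cyp4b1, with log2 ratios from −3.77 for Nostrin to −2.82 for Cyp4b1. Apart from Aff2 and Trat1, none of them passed without mixed cells. Ccn2 and Fam167b had no hKO UMI left in that setting. Their listed log2 ratios of 0.66 and 0.34 came from the floor of 3 counts and show no direction. The endothelial list had all 10 of its genes lower, with a median of −2.08, and none was high enough to be tested without mixed cells. Stab2, a scavenger receptor of liver sinusoidal endothelium, stood at 563 CPM in WT and 118 CPM in hKO. Fabp4, a lipid-binding protein of endothelium and fat cells, had −2.13, and Cd36, a fatty acid transporter, −1.59; they were the 2 lower genes among 9 tested genes of fatty acid and cholesterol handling. Without mixed cells Cd36 had 0.93 (−0.08 to 1.92) and was no longer tested, and none of the 6 genes of that list still tested passed.

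The highest genes were mostly hepatocyte transcripts. Itih4, a plasma protease inhibitor, stood at 13.0 CPM in WT and 151 CPM in hKO, a log2 ratio of 3.54, and Apob, the carrier protein of lipoproteins, at 28.4 and 196 CPM, a ratio of 2.79. Cyp2d10 gave 1 UMI in WT and 95 in hKO (7.49, 4.98 to 12.81). The complement factor Cfb (3.49), Serpina3k (3.37), Apof (3.34), Mug1 (3.26) and the fibrinogen chain Fga (3.01) are likewise made by hepatocytes. In gated B cells the log2 ratios of Itih4 and Apob were 3.18 and 2.20. Dscam (2.46) and Aif1 (2.19) completed the 10. Of 67 Dscam UMIs in hKO, 31.3% came from 1 cell, and Aif1, a macrophage gene, was below the floor without mixed cells.

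**Figure D4:**
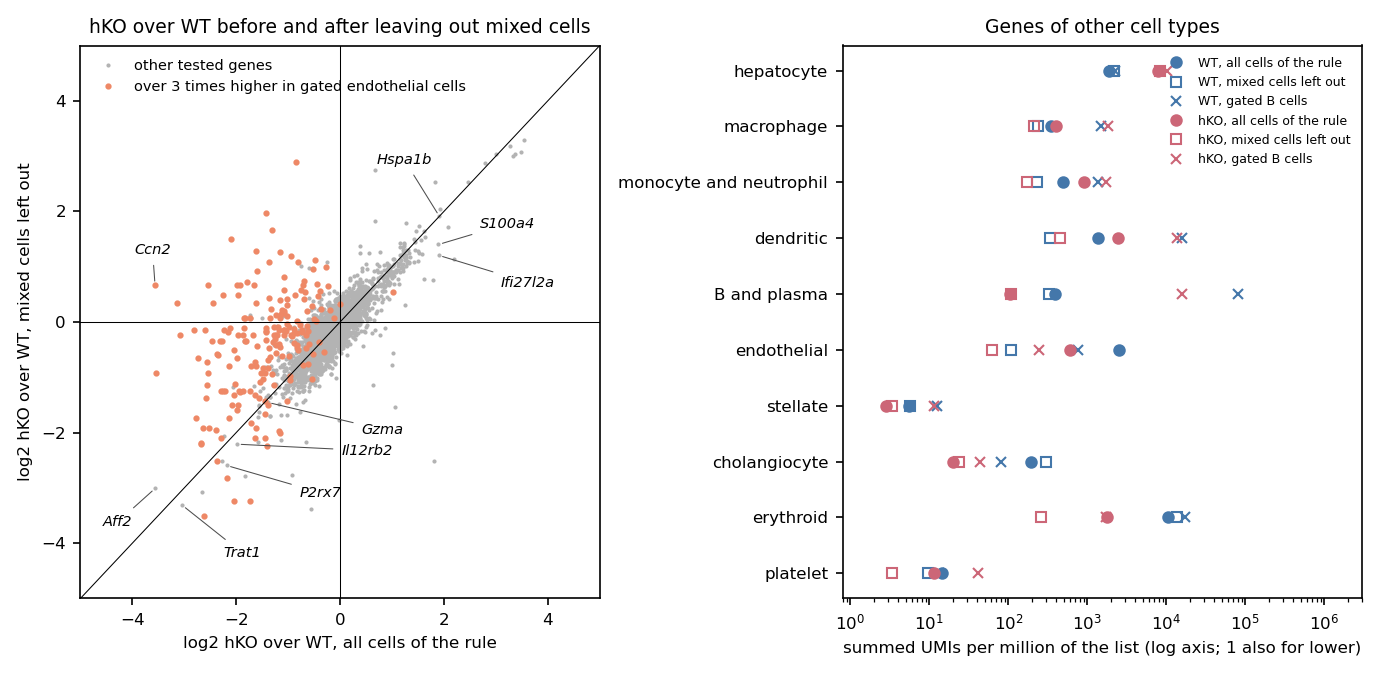
Left, log2 ratio of hKO over WT with all cells of the rule (x axis) and without mixed cells (y axis) for each tested gene; orange points are over 3 times higher in gated endothelial cells, and many move from below −1 to near 0. Right, summed level of each list of other cell types in CPM on a log axis, for all cells (filled circles), without mixed cells (open squares) and in gated B cells (crosses), in WT (blue) and hKO (red); the hepatocyte sum is higher in hKO in all 3 sets of cells.

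Outside hepatocyte genes, S100a4, S100a6, Crip1, Hspa1b and genes of the respiratory chain were higher in hKO. S100a4, a calcium-binding protein of effector and memory cells, stood at 208 CPM (189 to 229) in WT and 774 CPM (722 to 829) in hKO, a log2 ratio of 1.89 (1.72 to 2.07) and of 1.40 without mixed cells. S100a6 stood at 362 and 1122 CPM (1.63), and Crip1, a small LIM protein, at 276 and 819 CPM (1.57). Of 10 tested heat-shock genes, 2 were higher and none lower: Hspa1b stood at 76.2 and 287 CPM (1.91, 1.63 to 2.20), and Hspa1a at 65.3 and 137 CPM (1.07), which did not pass without mixed cells (0.95). Of 11 interferon response genes, 1 was higher: Ifi27l2a stood at 101 and 377 CPM (1.90, and 1.21 without mixed cells), while Isg15 had 0.78 and the median was −0.03. Dbi, which binds acyl-CoA, stood at 84.2 and 246 CPM (1.55). After a scaled profile of all filtered cells was subtracted as free RNA, its log2 ratio was listed at −2.50. No hKO count of Dbi was left there, and the floor of 3 counts set that value. These genes beyond the highest 10 were taken from those that passed with and without mixed cells, after their values were seen, or from the lists.

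Genes of the respiratory chain and ATP synthase stood out by number. By symbol (Nduf, Uqcr, Cox4 to Cox8 and Atp5, a set chosen after the data were seen) 72 were tested, and 25 of them were among the 94 higher genes and none among the lower. Their median log2 ratio was 0.84, against −0.24 for all tested genes, and 0.74 without mixed cells. Examples were Ndufa1 at 37.4 CPM in WT and 106 CPM in hKO (1.50, 1.07 to 1.94), Atp5e at 176 and 480 CPM (1.45), Cox7c at 157 and 396 CPM (1.34) and Cox6c at 152 and 383 CPM (1.33). The same genes had medians of 0.93 in marker-positive CD8 cells, 1.05 in CD4 T cells and 0.89 in gated B cells, where the medians of all tested genes were −0.24, −0.21 and −0.02. Past the size rule, 31 of 72, 37 of 70 and 28 of 69 were higher in those 3 gates, against 3.98% of 3945, 5.08% of 4035 and 4.2% of 3359 of all tested genes, and none was lower in any of the 4. In every gate the total and the median of this set kept any of its genes that reached the size but were set aside. The values for all tested genes leave set-aside genes out.

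Lower in hKO with and without mixed cells were receptors and signalling genes of T cells. Trat1, which stabilises the T cell receptor complex at the surface, stood at 140 CPM (124 to 157) in WT and 17.0 CPM (10.1 to 26.9) in hKO, in 130 of 390 and 11 of 245 cells, a log2 ratio of −3.04 (−3.82 to −2.36) and of −3.31 without mixed cells. Aff2 stood at 66.8 and 5.66 CPM (−3.56, −5.03 to −2.40). P2rx7 stood at 125 CPM (110 to 141) and 27.4 CPM (18.3 to 39.3), a ratio of −2.19 (−2.79 to −1.63). Il12rb2, the IL-12 receptor chain that marks T cells able to answer IL-12, stood at 135 and 34.0 CPM (−1.99, −2.53 to −1.48). Atp8a2 stood at 490 and 105 CPM (−2.23), Vav3, an exchange factor in receptor signalling, at 412 and 131 CPM (−1.65), and Dusp2, a phosphatase induced by activation, at 133 and 44.4 CPM (−1.58). These genes were named because they passed the size rule with and without mixed cells. A gap beyond counting error was therefore fixed by that choice. Of all tested genes, 6.27% were lower with all cells and 3.68% without mixed cells.

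Of 11 tested activation and exhaustion genes that the rule did not use, 2 were lower and 1 higher, with a list median of −0.55. Cd160 stood at 164 and 56.6 CPM (−1.54, −1.96 to −1.14) and Cd101, an inhibitory receptor, at 78.2 and 26.4 CPM (−1.57, −2.20 to −0.98). The higher gene was Ikzf2, which encodes Helios, at 162 CPM (145 to 181) in WT and 382 CPM (346 to 421) in hKO, a log2 ratio of 1.23 (1.02 to 1.45) and of 1.41 without mixed cells. Tox had a log2 ratio of 0.69 (0.58 to 0.79), which did not reach the size. Without mixed cells 4 of 11 genes of that list were lower and 1 higher. For this list and those below, the shares over all 3812 tested genes were 6.27% lower and 2.47% higher. Without mixed cells they were 3.68% and 2.48% of 3585.

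Of 7 tested tissue residency genes, 3 were lower and none higher, with a median of −0.85 against −0.24 over all genes. They were P2rx7, Itga1, at 500 CPM (469 to 532) and 213 CPM (186 to 243), with −1.23 (−1.44 to −1.02), and Rgs1, at 310 and 154 CPM, with −1.01. Itga1 had −0.87 without mixed cells and no longer passed, which left 2 of 7 lower there. Cd69 (−0.85) and Cxcr6 (−0.35) did not pass with all cells. Of 16 cytotoxic genes, 2 were lower, against 6.27% of all tested genes, with a list median of −0.40. Gzma stood at 529 CPM in WT and 201 CPM in hKO (−1.40), but 5 cells held 48.6% and 62.0% of its UMIs, and of 212 and 43 Ccl3 UMIs 1 cell held 54.3% and 58.1%. Gzmb (−0.89), Ccl4 (−0.91), Prf1 (−0.11) and Ifng (−0.43) did not pass. Of 13 naive and recirculation genes none passed in either direction, with a median of 0.21: Il7r had −0.53 and Satb1 had 0.09. Of 14 memory genes, 2 were lower: Id3, a factor of long-lived memory cells, had −2.68, and Fcgr2b, an inhibitory Fc receptor, −1.43. Both were under the 50 CPM floor without mixed cells. Ly6c2 had 0.83 (0.66 to 1.00).

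None of 15 MHC class I genes passed (median −0.06), nor any of 11 translation genes (−0.10), 10 glycolysis genes (−0.29) or 6 glucocorticoid and stress genes (−0.51). Of 7 immediate early genes, 2 were lower, with a median of −0.78; Btg2, an antiproliferative gene induced by stimulation, stood at 187 and 89.7 CPM (−1.06), and Ier2 had −0.88. Of 15 T cell receptor and signaling genes, 1 was lower, the co-stimulatory receptor Cd226 at 799 and 378 CPM (−1.08, and −0.77 without mixed cells). Of 6 natural killer receptor genes, 2 were higher, the adaptors Tyrobp (2.08) and Fcer1g (1.53), which macrophages and dendritic cells also express and which were set aside without mixed cells. In that setting 1 of 5 tested genes of the list was lower and none higher, with a median of −0.06. Without mixed cells, Fcer1g was still higher in Itga1-only than in Ly6c2-only cells in both libraries. Of 6 tested cell cycle genes, 1 was lower: Mki67, a marker of dividing cells, stood at 75.2 and 34.0 CPM (−1.15), and 5 cells held 65.6% and 61.1% of its UMIs. The list median was −0.48 with all cells and −1.41 without mixed cells, where 3 of those 6 genes were lower.

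The same contrast was read in other lymphocyte gates of the same 2 libraries, which hold other cells. Among all genes at the floor, a log2 ratio of at least 1 was found in 5.11% of 4069 genes in marker-positive CD8 cells, 6.16% of 4122 in CD4 T cells and 5.37% of 3483 in gated B cells, and a ratio of −1 or lower in 6.96%, 9.83% and 1.44%. Of the 63 genes higher with and without mixed cells, 45 of 59 at the floor had a log2 ratio of at least 1 the same way in marker-positive CD8 cells, 51 of 57 in CD4 T cells and 48 of 58 in gated B cells. Of the 40 lower genes, 10 of 31 did so in marker-positive CD8 cells, 9 of 30 in CD4 T cells and 0 of 14 in B cells, the last near the share of all genes there. For P2rx7 the log2 ratio was −0.85 in marker-positive CD8 cells and −1.10 in CD4 T cells, for Il12rb2 −0.53 and −1.12, for Trat1 −1.30 and −1.19, and for Cd160 −0.26 and −0.41. Atp8a2 had a larger ratio in those gates, −3.64 and −3.87. Ikzf2 had −0.05 in both.

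**Figure D5:**
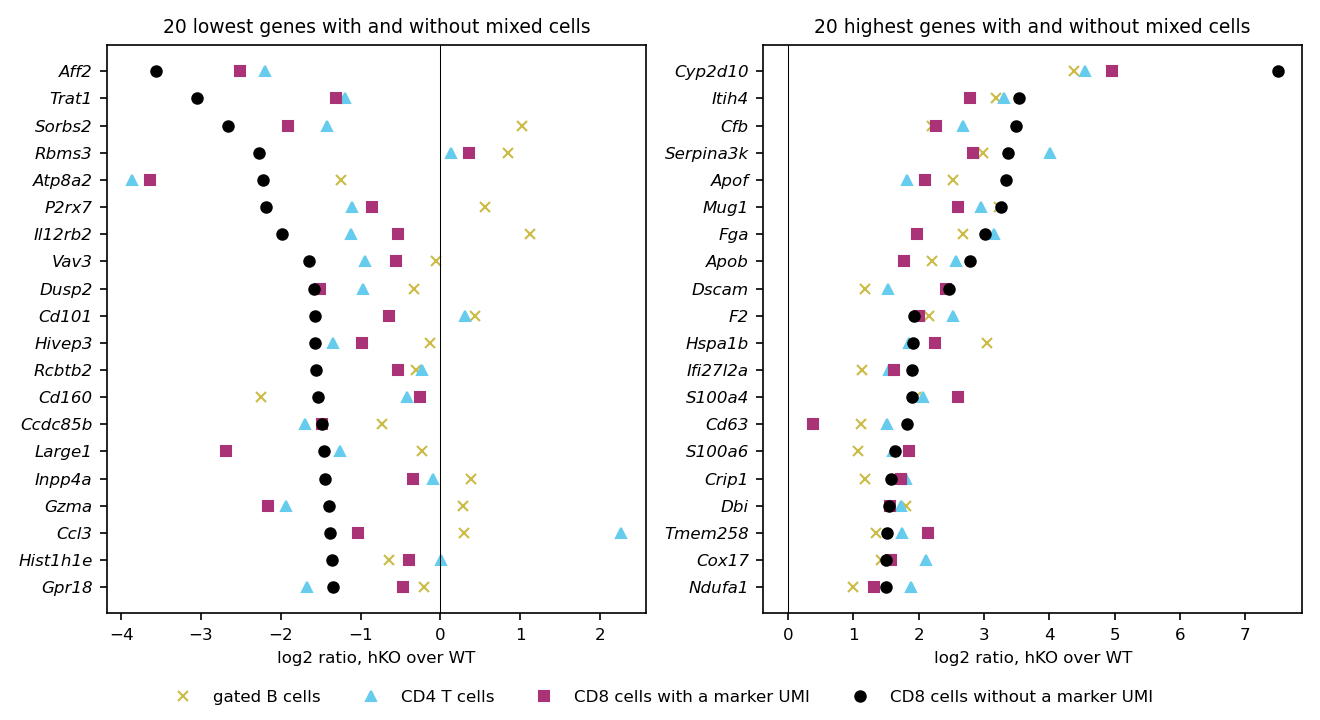
Log2 ratio of hKO over WT (x axis) for the 20 lowest and the 20 highest genes that passed with and without mixed cells, in CD8 cells without a marker UMI (black), CD8 cells with one (purple), CD4 T cells (light blue) and gated B cells (yellow crosses). The highest genes lie right of 0 in all 4 gates, while P2rx7, Il12rb2 and Cd160 lie nearer 0 in the other T cell gates than in the cells without exhaustion markers.

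The genes lower in hKO overlapped with the Itga1-only class. Of the 40 genes lower with and without mixed cells, 10 (25%) were among the 88 genes higher in Itga1-only cells, which is 11.4% of those 88, against 1.9% of all 4626 genes in that class. Both lists were drawn from counts of the same cells, and Itga1-only cells were a smaller share in hKO. The overlap is therefore a description and not a test. The 40 came from the genes tested for hKO over WT (3812, and 3585 without mixed cells), which are not the same set as the 4626. Among the 57 genes higher in Ly6c2-only cells, 1.23% of all, there were 0 of the 40, which is near that share. The 10 were Aff2, Atp8a2, Cd160, Chn2, Il12rb2, Mki67, P2rx7, Rgs1, Trat1 and Vav3. Of the 63 higher genes, 1 (Ikzf2) was among the Itga1-class genes and 1 (Rapgef4) among the Ly6c2-class genes. Inside the Itga1-only class, of 99 WT and 23 hKO cells, several of these genes gave few UMIs in hKO. Trat1 stood at 316 CPM in WT (128 UMIs) and 42.0 CPM in hKO (8.66 to 123, 3 UMIs in 2 cells), and P2rx7 at 343 and 84.0 CPM (30.8 to 183, 6 UMIs). Aff2 stood at 192 and 70.0 CPM (22.7 to 163, 5 UMIs), where the intervals of the libraries overlap. Il12rb2 stood at 252 CPM (205 to 305) and 112 CPM (48.3 to 221, 8 UMIs), which overlap as well. Cd160 stood at 313 CPM (261 to 372) and 182 CPM (96.9 to 311, 13 UMIs), intervals that overlap, Atp8a2 at 1267 and 742 CPM and Vav3 at 523 and 434 CPM, the last also with overlapping intervals. Mmp16 went the other way, at 552 CPM in 25 of 99 WT cells and 1315 CPM in 14 of 23 hKO cells, while Gzma, at 466 and 770 CPM, was found in 17 of 99 and 3 of 23 cells. The smaller share of Itga1-only cells and the levels within them both accompany the lower pooled values, and their separate parts were not tested.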

How the data were processed

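Single-cell RNA was measured in 2 libraries, 1 per group, grouped by their genotype label. The deposited values are raw UMI counts per gene and cell barcode, made with Cell Ranger 7.1.0 per the file headers; other columns name the 32285 features and the barcodes and were deposited as row and column names. The submitters' processing notes also name R 3.0, Seurat 3 and build mm9; no source used here gives the annotation. No coordinates were taken from the counts. Sequences are RefSeq's for GRCm38.p6.

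Cells were gated on counts in Python 3.11.15 (numpy 2.4.6, scipy 1.17.1, pandas 2.3.3). UMIs were summed per gate and library and scaled to counts per 1000000 UMIs (CPM), with exact Poisson intervals; log2 ratios have exact conditional binomial intervals, at 95%. With 1 library per group no test was run. For a gate with no count of a gene, a floor of 3 counts was used. Mitochondrial, ribosomal-protein, hemoglobin, immunoglobulin, receptor segment and numbered predicted genes were left out of counts of genes. Barcodes were not filtered for doublets: Scrublet (scanpy 1.11.5), run per library, called 0 cells at its own threshold and so did not work, and 24 WT and 14 hKO cells without exhaustion markers lay among the highest scores at the expected rate of 7.17% and 8.41%. The scripts were tested on simulated data.

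Named genes are the rule's own genes, the label's markers, Fabp5, the 10 highest and lowest of each comparison and the 2 to 4 largest of each of 33 lists (419 genes); others named were chosen after their values were seen. The cells and lists were chosen with earlier results of these data known. Alternatives tried are named under how the results depend on the processing. A gene of the recirculation set and list is not reported here.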

Additional observations from a re-analysis of the deposited data

Results flagged for a closer look

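Mki67, the marker of dividing cells, moved in opposite directions in the 2 kinds of CD8 cells. In cells without exhaustion markers its log2 ratio of hKO over WT was −1.15, and in marker-positive CD8 cells it was 1.78; the difference was not tested. It was found in 35 of 390 WT and 16 of 245 hKO cells without exhaustion markers, and 5 cells held 65.6% and 61.1% of its UMIs.

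Ccl3, a chemokine of stimulated T cells, had a log2 ratio of −1.38 in cells without exhaustion markers and of 2.27 in CD4 T cells, and this difference was not tested either. Of its UMIs in cells without exhaustion markers, 1 cell held 54.3% in WT and 58.1% in hKO.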

How the results depend on the processing

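No paired analysis was possible because each group has a single library. With 1 library per group, no library could be left out. Alternatives chosen after seeing the data were leaving out mixed cells, lifting the C1q limit, dropping Ccl5, setting genes aside at 3 times, and those of the Ly6c2 and Itga1 split. The log2 ratio of the share of filtered cells was −1.23 with a mitochondrial limit of 10%, −1.15 with at least 2 Cd8 UMIs, −0.59 without any UMI of C1q genes, Siglech, Cd79b, Lyz2 or Kdr (strict gate), −1.21 when Tigit, Ctla4, Entpd1, Cd244a and Tox also had to be 0 (wider exhaustion line), and −0.54 without the C1q limit. Genes higher in hKO numbered 187 with the wider exhaustion line, 151 with the median set to 0, 203 with special genes out of the total, 156 and 316 with a floor of 20 CPM and none, 159 with none set aside and 61 with genes set aside at 3 times. Genes lower numbered 388 with the wider line, 132 without mixed cells, 127 by mean per-cell CPM, 889 after free RNA was subtracted (25.9% of WT and 63.9% of hKO UMIs), 116, 597 and 900 with floors of 100 and 20 CPM and none, and 57 with genes set aside at 3 times. The subtracted profile was the sum of all filtered cells, T cells included, scaled by the hepatocyte list. It therefore also took away transcripts that T cells make, and its shares do not measure free RNA. Recirculation-only cells were 8.00% of WT and 10.5% of hKO cells with the wider line, 2.56% of WT with all UMIs, 9.74% and 10.2% without Ccl5, and 6.84% of hKO in the strict gate. Genes higher over marker-positive cells numbered 80 in the strict gate, 12 with the wider line and 98 without mixed cells. Ly6c2-only cells were 16.8% of WT thinned; Itga1-only cells were 25.3% thinned and 41.5% with mixed cells kept; the genes of that split numbered 6 higher and 14 lower thinned, and 88 and 336 with mixed cells kept. Of 899 values of 70 named genes, 708 stayed within their interval, 177 moved outside it and 14 turned, and 732 still passed. In the strict gate, those that turned were Nostrin, Ccn2, Cyp4b1 and Fcgr2b (0.16) and Cd36 (0.39). Without mixed cells they were Ccn2 (0.66), Fam167b (0.34), Il6st (0.079), Cd36 (0.93), Ctsl (0.12) and Stab2 (0.49). After free RNA was subtracted they were Dbi (−2.50), Tmem258 (−0.17) and Ccr2 (−1.48). Nostrin, Ccn2 and Cyp4b1 in the strict gate, and Ccn2 and Fam167b without mixed cells, had no hKO UMI. Their turned sign came from the floor of 3 counts and is no measured reversal. Dbi and Ccr2 had no hKO count left after the subtraction, so that floor set their values too. The intervals of the other turned values all included 0, so they show no direction. Examples were Fcgr2b (−1.64 to 1.88) in the strict gate and Stab2 (−1.77 to 2.57) without mixed cells. The causes were not tested.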

Other observations

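The CD3 chains and receptor constant genes did not share 1 ratio between the libraries. Cd3g, which the rule used only in a sum, stood at 686 CPM in WT and 346 CPM in hKO, a log2 ratio of −0.99, while Cd3d stood at 557 and 603 CPM, a ratio of 0.11. In marker-positive CD8 cells Cd3g had −1.10 and Cd3d −0.15, and in CD4 T cells they had −0.46 and 0.42. Trac had −0.79 and Trbc2 −0.52 in the cells without exhaustion markers. A sum of 1 UMI passed the CD3 line, so the rule does not fix these ratios gene by gene.

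Malat1, a nuclear noncoding RNA, stood at 13380 CPM in WT and 8461 CPM in hKO (−0.66), and it had −1.08 in marker-positive CD8 cells, −0.73 in CD4 T cells and −0.47 in gated B cells. Tmsb4x, a short and abundant cytoplasmic mRNA, had 0.44, 0.67, 0.73 and 0.68 in the same order. Klrg1, at 43 UMIs in WT and 7 in hKO, a log2 ratio of −1.70 (−3.10 to −0.53), and Cdk1, at 51 and 7, a ratio of −1.94 (−3.33 to −0.80), were under the 50 CPM floor and so were not counted.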
